A study of Mus musculus with 8 samples.

Results

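The genes described here encode the proteins of the cytosolic ribosome in antigen-specific mouse CD4 T cells. They were taken as all protein-coding genes with an Rpl or Rps symbol followed by a number, together with Rplp0, Rplp1, Rplp2 and Rpsa, and without the Rps6 kinases and the pseudogenes named with -ps. This rule gave 84 genes of the 39179 listed in the count files: 32 of the small (40S) subunit, 49 of the large (60S) subunit and 3 of the P-stalk, the acidic arm of the 60S subunit that recruits elongation factors. A further 3 symbols that match the rule are annotated as pseudogenes and were left out.

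A cytosolic ribosome holds 1 copy of nearly every one of these proteins beside the ribosomal RNAs, so the genes are usually expressed in near-fixed proportions. Their mRNAs begin with a C followed by a run of pyrimidines, the 5′ terminal oligopyrimidine (TOP) tract, through which the kinase mTORC1 and the RNA-binding protein Larp1 control their translation and stability. Activated T cells make large numbers of ribosomes as they grow and divide, and Myc is a known driver of that programme.

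The study compared 4 groups of 2 libraries each: follicular helper T cells (Tfh) and other activated helper cells (non-Tfh), each with an empty retroviral vector or with a vector for Bach2, a transcription repressor of lymphocytes. All groups share a Smarta background (a transgenic T cell receptor) crossed to CreERT2, a Cre recombinase switched on by tamoxifen. After transduction the cells were transferred into C57BL/6 hosts, which keep their own lymphocytes, and were activated by subcutaneous immunization with nitrophenol and the peptide GP61-80 on mouse serum albumin. Tamoxifen was injected on day 5 to switch the Bach2 vector on, and 18 hours later, on day 6, Thy-1.1+ CD44hi cells of pooled inguinal nodes were sorted as CXCR5+ PD-1+ (Tfh) or CXCR5- PD-1- (non-Tfh). The labels do not say whether the libraries of a group came from separate animals, so p-values measure only the spread between these libraries, and in sorted bulk RNA fewer cells of a type and less RNA per cell cannot be told apart.

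Libraries held 7862879 to 9889859 counts. Bach2 itself averaged 12.6 and 26.9 CPM (counts scaled to library size) in Tfh and non-Tfh cells with empty vector, and 127.8 and 144.0 CPM with its vector. Cxcr5, a gene of the sort, lay between 576.5 and 814.7 CPM in the Tfh libraries and between 17.4 and 28.2 CPM in the non-Tfh libraries. Pdcd1, which encodes PD-1, lay between 381.2 and 659.4 CPM and between 95.9 and 202.3 CPM. A list of 8 Tfh markers includes Cxcr5 and Pdcd1, whose proteins defined the sort. Of the 8, 7 were called higher in Tfh cells with each vector (10.6% and 11.6% of all tested genes were). Icos went the other way, at a log2 fold change of -0.48 with empty vector (adjusted p = 0.00442, edgeR) and -0.24 with Bach2 (adjusted p = 0.110). A list of 6 T cell markers summed to 6242 to 8557 CPM in every library. Of the B cell markers, Ighm was the abundant one (682.0 to 818.9 CPM in Tfh and 319.0 to 416.5 CPM in non-Tfh libraries). The other 6 B cell markers summed to only 2.05 to 4.82 CPM in Tfh and 3.78 to 12.9 CPM in non-Tfh libraries. Myeloid markers summed to 9.49 to 17.3 CPM, CD8 T cell markers to 13.3 to 20.4 CPM and red cell markers to 0 to 0.242 CPM. The part of these other cell types in the results below was not tested.

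Of the 84 genes, 81 passed the filter on low counts, with 311 to 13002 counts in a library. Rpl3l, the muscle form of Rpl3, and Rpl10l, the testis form of Rpl10, had 0 counts in all 8 libraries, where the limit that a count of 0 allows (3 counts) is 0.303 to 0.382 CPM. Rpl39l, the testis form of Rpl39, had 1 to 5 counts in a library. Per kilobase of coding sequence, the mean level over the 8 libraries was highest for Rpl41, which encodes the smallest protein of the 60S subunit, at 4751 CPM per kb. Rpl32 was next, at 1611 CPM per kb. The lowest of the tested genes were Rpl22l1 (133.5), Rpl23a (112.6) and Rpl24 (110.7 CPM per kb). The coding sequence of Rpl41 is only 75 bases long, so its rank depends on this short divisor. Without division by length its mean was 356.3 CPM, and Rpl4 had the highest mean, at 1194 CPM.

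The starts of several of these genes show a TOP-like tract, a pyrimidine run near the annotated start. Each tract printed below begins before that start, and whether the mRNA begins with it was not tested. The lines below give 30 bases from RefSeq (GRCm38.p6), 15 before the annotated start and the rest from it on, with capitals marking a C followed by at least 6 further pyrimidines. The first 3 genes were called lower in Tfh cells carrying the Bach2 vector, the fourth is among the 3 genes called for the vector averaged over both cell types, and the last 2 changed between the cell types without having a tract there.
Rpl7a (chr2:26910792-26910821, plus strand): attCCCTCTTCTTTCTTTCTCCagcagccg
Rpl35a (chr16:33056467-33056496, plus strand): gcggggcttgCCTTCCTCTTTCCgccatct
Rpl14 (chr9:120571502-120571531, plus strand): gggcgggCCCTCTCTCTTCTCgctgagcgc
Rps27 (chr3:90213634-90213663, minus strand): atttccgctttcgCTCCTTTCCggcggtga
Rpl7l1 (chr17:46782642-46782671, minus strand): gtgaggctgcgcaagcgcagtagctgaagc
Rpsa (chr9:120127751-120127780, plus strand): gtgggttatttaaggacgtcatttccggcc

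RefSeq promoter entries were at hand for 64 of the 84 genes. A tract of at least 7 such bases began within 30 bases of the annotated start in 44 of the 64 (68.8%), against 31.2% of the 27025 genes of the table. The letters CCGGAAG, the core bound by ETS factors, stood on either strand of the 300-base window (250 before the start to 50 after) in 26 of them (40.6%, against 9.93% of all genes). CACGTG, the E-box that Myc binds, was found in 6 (9.38%, against 8.09%). TGAGTCA, the core shared by AP-1 and Bach elements, was found in 2 (3.12%, against 5.95%), and TATAAA in 7 (10.9%, against 15.7%). A match describes the letters of this window only, and it moves with the annotated start.

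Ribosomal protein genes took the largest share of counts in the 2 libraries of non-Tfh cells with Bach2. The 84 genes together held 1.89% and 2.07% of the counts in the libraries of Tfh cells with empty vector, and 2.03% and 1.94% in Tfh cells with Bach2. They held 2.04% and 2.10% in non-Tfh cells with empty vector, and 2.35% and 2.33% in non-Tfh cells with Bach2. Both non-Tfh libraries with Bach2 were thus above the other 6. The Tfh libraries with Bach2 lay just below the non-Tfh libraries with empty vector, and those of Tfh cells with empty vector overlapped both. Group means were 1.98 ± 0.124%, 1.99 ± 0.0636%, 2.07 ± 0.0452% and 2.34 ± 0.0184% in the same order (SD, n = 2). No test was made of this sum, since the genes were chosen with earlier results of these data known.

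**Figure D1:**
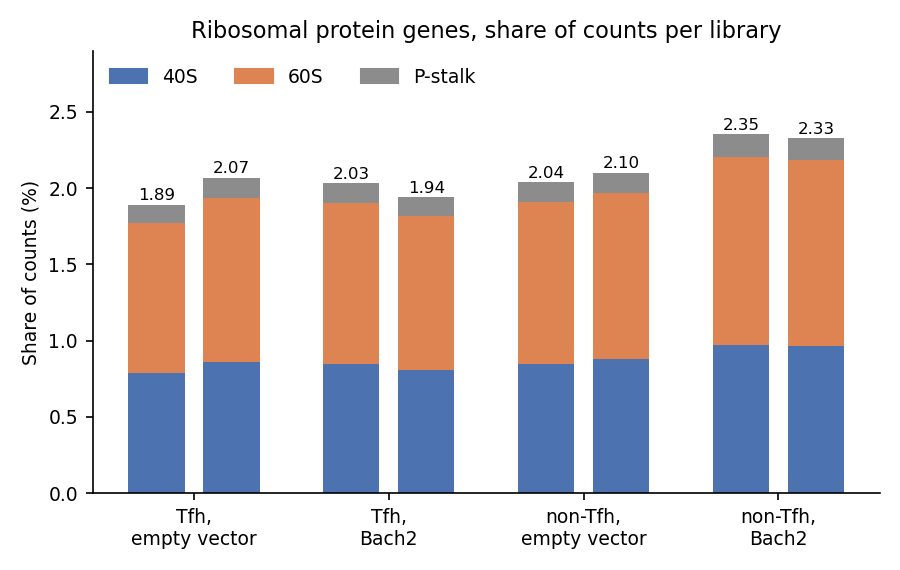
Share of counts in ribosomal protein genes, in percent of all counts, in each of the 8 libraries, stacked by 40S, 60S and P-stalk genes. Bars of non-Tfh cells with Bach2 reach 2.35% and 2.33%, and the other 6 lie between 1.89% and 2.10%.

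The subunits kept their proportions in these sums. The ratio of 60S to 40S counts, with the P-stalk counted in the 60S subunit, lay between 1.39 and 1.42 in every library. Mitochondrially encoded RNAs held 0.945% to 0.987% of counts in non-Tfh cells with Bach2, 0.860% to 0.945% in non-Tfh cells with empty vector, 0.953% to 1.10% in Tfh cells with empty vector and 1.08% to 1.26% in Tfh cells with Bach2. Their means were highest in the Tfh groups, but libraries of Tfh cells with empty vector and of non-Tfh cells with Bach2 overlapped. The part of these RNAs in the ribosomal protein share was not tested. Without the mitochondrial counts the means of the ribosomal protein share were 2.00%, 2.01%, 2.09% and 2.36% in the order of the groups above.

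With empty vector, Tfh cells had lower levels than non-Tfh cells for 7 ribosomal protein genes and a higher level for Rpsa. Calls are at an adjusted p below 0.05 in the quasi-likelihood test of edgeR, with Benjamini-Hochberg adjustment over all 11475 tested genes, here and below. The 7 lower genes compare with a background of 11.3% of all tested genes called lower, and the 1 higher gene with 10.6% called higher, so neither count exceeds what the genes of these cells show as a whole. The estimates leaned downwards, with 13 of 81 positive (50.7% of all genes) and a median log2 fold change of -0.09 (0.0055 over all genes). The libraries of the groups did not overlap for 38 genes lower and 4 higher in Tfh cells, where 30.9% and 31.3% of all tested genes did the same. The count of lower genes rested on single libraries: it was 2 without Tfh empty vector replicate 1, 4 without non-Tfh empty vector replicate 1 and 3 without non-Tfh empty vector replicate 2.

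Rpsa encodes a 40S protein that is also known as the laminin receptor and is needed for maturation of the small subunit. It lies at chr9:120127689-120132369 (GRCm38, ENSMUSG00000032518) and measured 756.3 and 701.3 CPM in Tfh cells with empty vector, and 539.7 and 512.7 CPM in non-Tfh cells with empty vector. With the Bach2 vector it measured 759.9 and 691.9 CPM in Tfh cells, and 546.0 and 566.9 CPM in non-Tfh cells. All 4 Tfh libraries were above all 4 non-Tfh libraries. The log2 difference was 0.47 (SE 0.0812, adjusted p = 0.000782, edgeR) with empty vector and 0.38 (SE 0.0811, adjusted p = 0.00314) with Bach2.

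Rpl29 moved the other way. It encodes a small basic protein of the 60S subunit that mice can survive without, and lies at chr9:106429454-106431568. Its levels were 105.1 and 114.3 CPM in Tfh cells with empty vector, 104.4 and 112.3 CPM in Tfh cells with Bach2, 159.0 and 160.3 CPM in non-Tfh cells with empty vector, and 174.2 and 198.7 CPM in non-Tfh cells with Bach2. The Tfh libraries were again apart from the non-Tfh libraries, here on the low side. The log2 fold change was -0.54 (SE 0.0932, adjusted p = 0.000753, edgeR) with empty vector and -0.78 (SE 0.0931, adjusted p = 3.31e-05) with Bach2.

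Copies of the standard proteins were also among the lower genes. Rpl7l1, a paralog of the 60S gene Rpl7, measured 112.0 and 120.3 CPM in Tfh and 155.5 and 152.0 CPM in non-Tfh cells with empty vector (log2 fold change -0.41, SE 0.0888, adjusted p = 0.00453, edgeR). Rps27l, a paralog of the 40S gene Rps27 and a known target of p53, measured 94.1 and 105.8 CPM in Tfh and 126.2 and 138.7 CPM in non-Tfh cells with empty vector (-0.41, SE 0.113, adjusted p = 0.0190). Also called with empty vector were the 40S genes Rps2 (-0.29, adjusted p = 0.0223) and Rps19 (-0.25, adjusted p = 0.0400), the gene most often mutated in Diamond-Blackfan anaemia. The calls of Rps2, Rps19, Rpl7l1 and Rps27l were lost when Tfh empty vector replicate 1 was left out, with adjusted p up to 0.722 over all alternatives. The calls of Rpsa and Rpl29 were kept in all 15 alternatives, with adjusted p up to 0.0260.

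**Figure D2:**
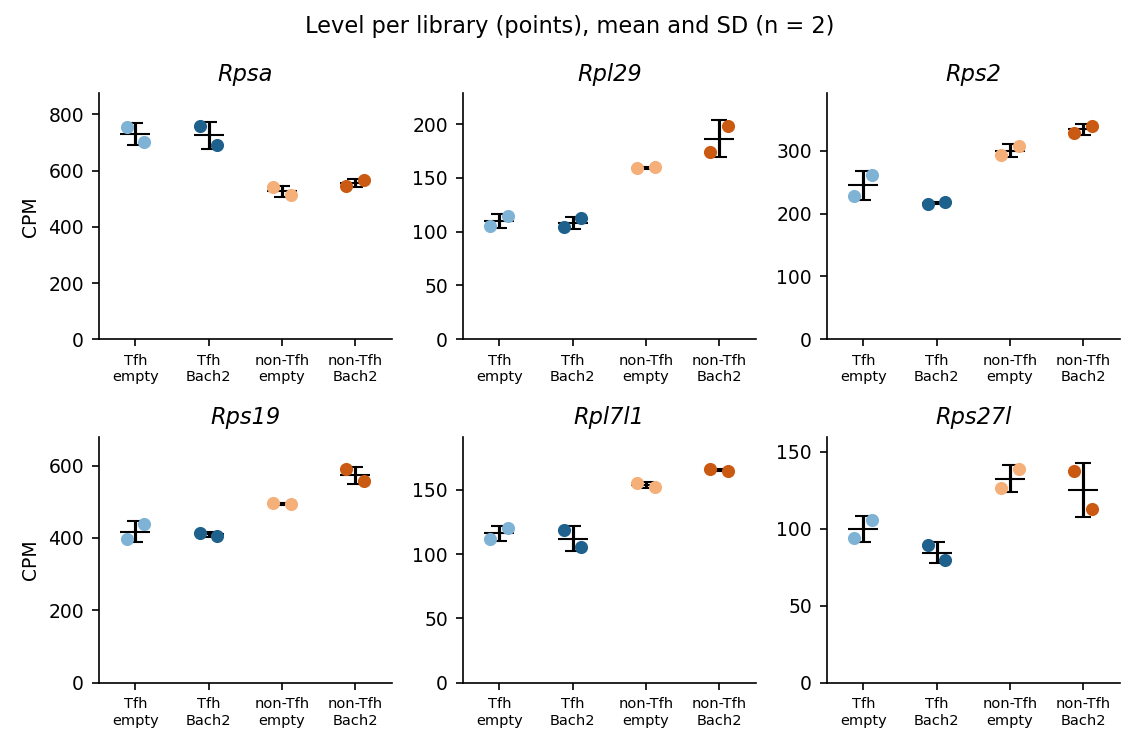
Levels in CPM of 6 ribosomal protein genes in each library (points) with the mean and SD of the 2 libraries of each group. Rpsa is higher in the Tfh groups, at 691.9 to 759.9 CPM against 512.7 to 566.9 CPM, and the other 5 genes are lower there.

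With the Bach2 vector, 38 ribosomal protein genes were lower in Tfh cells and 1, Rpsa, was higher. Here 12.7% of all tested genes were called lower and 11.6% higher. The lower calls were thus more frequent among the 81 genes than among all genes. These shares are not like for like, since the median SE was 0.0883 over the 81 genes and 0.1562 over all genes. A change of the same size is therefore called more easily among the 81 genes. Of the 40S genes 17 of 32 were lower, of the 60S genes 19 of 46, and of the P-stalk 2 of 3. Only 2 of 81 estimates were positive (50.1% of all genes), and the median log2 fold change was -0.25 (0.0007 over all genes). The libraries did not overlap for 76 genes lower in Tfh cells and 1 higher, where 30.5% and 29.3% of all genes did so. The count of lower genes was 17 without Tfh Bach2 replicate 2, 19 without non-Tfh Bach2 replicate 1 and 16 without non-Tfh Bach2 replicate 2, and 9 against a threshold of a 1.2-fold change, where Rpsa was lost too.

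Rps2, a 40S protein near the mRNA entry channel, measured 215.3 and 218.3 CPM in Tfh cells with Bach2, and 328.0 and 340.0 CPM in non-Tfh cells with Bach2. With empty vector the levels were 228.6 and 261.2 CPM against 293.1 and 307.3 CPM. The log2 difference with Bach2 was -0.62 (SE 0.0846, adjusted p = 0.000102, edgeR). The Tfh libraries were lower and the non-Tfh libraries higher than with empty vector. Rpl7a, a 60S protein that hosts several small nucleolar RNAs in its introns, measured 106.1 and 105.4 CPM in Tfh against 156.1 and 155.7 CPM in non-Tfh cells with Bach2 (-0.56, SE 0.0903, adjusted p = 0.000432). With empty vector its levels were 111.7 and 126.9 CPM against 138.3 and 129.9 CPM (-0.17, adjusted p = 0.206), so the groups were separate there too but closer. A change of the gap with the vector was not called for Rps2 (adjusted p = 0.898) or Rpl7a (adjusted p = 0.864) in edgeR, as given below.

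Rps19 measured 414.5 and 405.0 CPM in Tfh against 590.3 and 556.6 CPM in non-Tfh cells with Bach2 (-0.48, adjusted p = 0.000490, edgeR). Rpl7l1 was at -0.56 (adjusted p = 0.000360) and Rps27l at -0.56 (adjusted p = 0.00233). Rpl5, which with Rpl11 and the 5S RNA forms the particle that binds Mdm2, was at -0.43 (adjusted p = 0.00127). Rpl14 and Rpl35a, both 60S genes with a TOP-like tract shown above, were at -0.49 (adjusted p = 0.00162) and -0.46 (adjusted p = 0.00139). In the P-stalk, Rplp0 (-0.27, adjusted p = 0.0308) and Rplp2 (-0.26, adjusted p = 0.0372) were called, and Rplp1 was not (-0.11, adjusted p = 0.417). Both P-stalk calls were lost when any 1 library with the Bach2 vector was left out.

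Rps6, the 40S protein phosphorylated downstream of mTORC1, measured 253.6 and 238.8 CPM in Tfh and 292.7 and 306.5 CPM in non-Tfh cells with Bach2 (-0.28, adjusted p = 0.0165, edgeR). Rps27a, which encodes a fusion of ubiquitin and a 40S protein, was at -0.33 (adjusted p = 0.00965). The calls of Rps6 and Rps27a were lost without Tfh Bach2 replicate 2, without non-Tfh Bach2 replicate 2 and against a 1.2-fold change. Rpl22, whose protein is needed for the development of αβ T cells, was at -0.03 (adjusted p = 0.864), with 91.7 and 80.2 CPM in Tfh and 84.5 and 91.7 CPM in non-Tfh cells with Bach2. Its 2 groups overlapped.

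**Figure D3:**
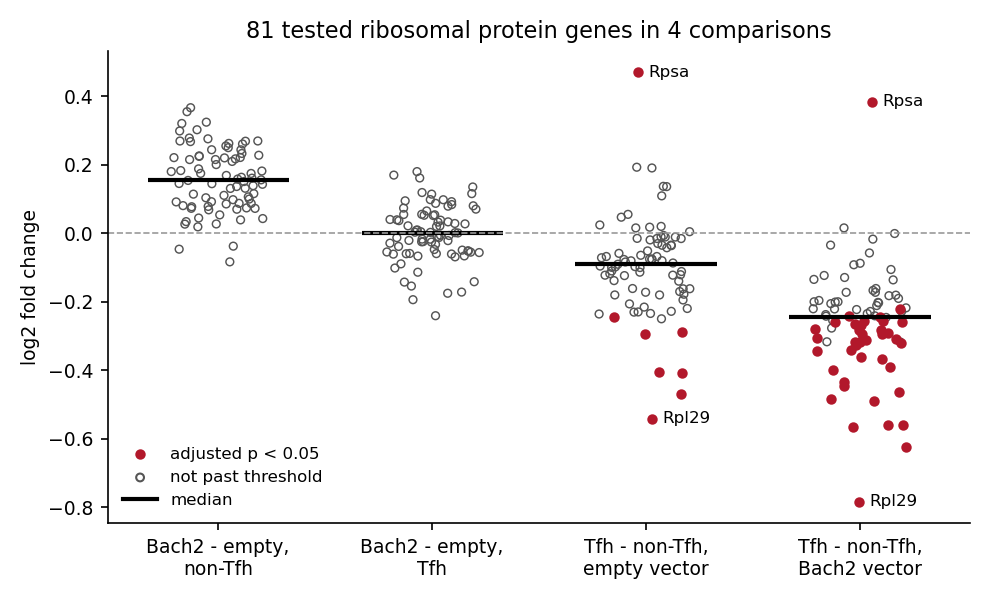
Log2 fold changes of the 81 tested ribosomal protein genes (points) in 4 comparisons, with genes past the adjusted p threshold filled and the median as a bar. Medians are 0.16 and 0.0008 for Bach2 against empty vector in non-Tfh and Tfh cells, and -0.09 and -0.25 for the cell types compared with empty vector and with Bach2.

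The 7 genes lower in Tfh cells with empty vector were all among the 38 lower with Bach2, which leaves 31 called with Bach2 alone. Over the 81 genes, the differences between cell types with the 2 vectors, which share no library, had a Pearson r of 0.845 across genes, and 0.805 without Rpsa. Over all tested genes r was 0.843, and genes are not independent replicates. The estimate was more negative with Bach2 for 79 of the 81. This difference between the differences was tested as the interaction of vector and cell type, and 0 of the 81 genes and 0 of all 11475 (0% called in either direction) passed in edgeR. DESeq2 also called 0 of the 81. At an unadjusted p below 0.05 there were 6 of 81 genes (7.41%), against 4.70% of all genes. The smallest adjusted p was 0.864, for Rpl7a (log2 difference -0.39, SE 0.128), followed by Rpl18 (-0.33, SE 0.112, adjusted p = 0.892) and Rps2 (-0.33, SE 0.119, adjusted p = 0.898). The median over the 81 genes was -0.17, against -0.0050 over all genes. So no single ribosomal protein gene was shown to respond differently to the vector in the 2 cell types.

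**Figure D4:**
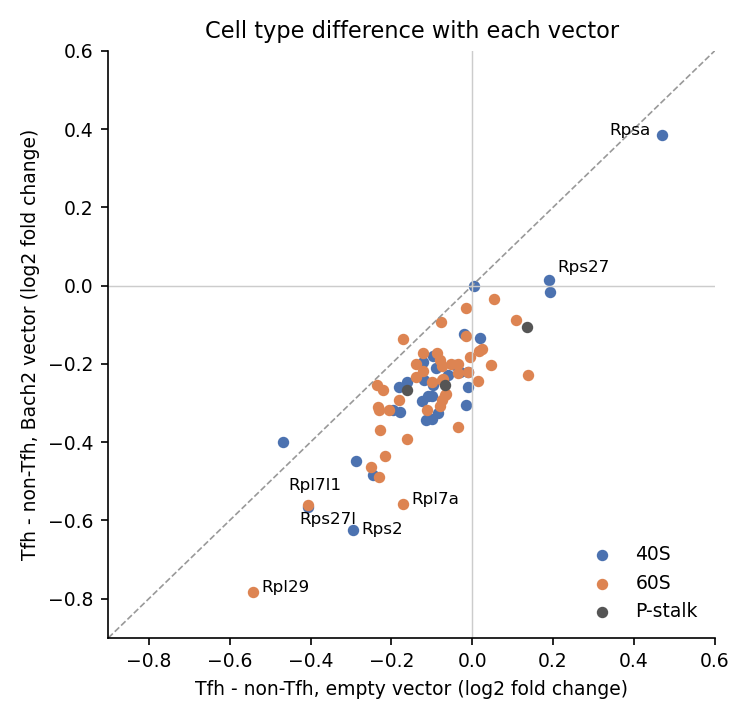
Tfh minus non-Tfh log2 fold change of each of the 81 genes with empty vector (x axis) and with Bach2 (y axis), coloured by subunit, with the line of equal values dashed. All but 2 of the points lie below the dashed line, and Rpsa (0.47 and 0.38) and Rpl29 (-0.54 and -0.78) are at the ends.

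Averaged over the 2 vectors, 40 ribosomal protein genes were lower in Tfh cells and 1, Rpsa, was higher, where 19.2% and 18.1% of all genes were called. Here too the median SE was smaller over the 81 genes (0.0625) than over all genes (0.1106). Only 7 estimates of 81 were positive (50.3% of all genes), and the median was -0.17. Among the smallest adjusted p were those of Rpl29 (-0.66, SE 0.0659, adjusted p = 2.54e-06, edgeR), Rpl7l1 (-0.48, SE 0.0628, adjusted p = 3.38e-05), Rps2 (-0.46, SE 0.0597, adjusted p = 3.42e-05) and Rpsa (0.43, SE 0.0574, adjusted p = 4.59e-05). These 4 kept their calls in all 15 alternatives. The count of lower genes was 24 without Tfh empty vector replicate 1, 23 without non-Tfh empty vector replicate 2, and 5 against a 1.2-fold change.

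In non-Tfh cells, the estimate for Bach2 against empty vector was positive for 78 of 81 ribosomal protein genes (50.1% of all genes), and the median log2 fold change was 0.16 (0.0007 over all genes), but 0 genes passed the test in either direction. Among all genes 0.253% were called higher and 0.619% lower. DESeq2 called 1 of the 81 genes higher, Rpl37a, and edgeR without the filter on low counts called 4. In the filtered fit 29 (35.8%, against 10.4% of all genes) had an unadjusted p below 0.05. These shares are not like for like either, with a median SE of 0.0877 over the 81 genes and 0.1554 over all genes. The libraries did not overlap for 61 genes higher and 0 lower with Bach2, where 20.9% and 21.3% of all genes did so.

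Rpl37a, a 60S protein, came closest to the threshold. It measured 335.0 and 362.4 CPM with empty vector and 432.0 and 467.0 CPM with Bach2 (log2 fold change 0.37, SE 0.0831, adjusted p = 0.0615, edgeR). Rpl18 followed, with 236.3 and 227.8 CPM against 284.8 and 294.7 CPM (0.32, adjusted p = 0.0886). In both genes the 2 Bach2 libraries were above the 2 empty vector libraries. The library kit does not mark strand, so where 2 genes overlap, reads of the shared stretch cannot be assigned by strand. This touches 28 of the 84 genes, among them Rpl18 (with Sphk2), Rps2 (Snhg9), Rpl5 (Fam69a), Rpl7l1 (Gm26904), Rpl35a (Gm17106) and Rps27a (Clhc1).

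In Tfh cells the same vector gave no common direction. The estimate was positive for 41 of 81 genes (49.9% of all genes) and ranged from -0.24 (Rps27l) to 0.18 (Rps27), with a median of 0.0008. No ribosomal protein gene was called, with 0 higher and 0 lower in edgeR and in DESeq2, where 0.549% and 1.16% of all genes were called higher and lower in edgeR. At an unadjusted p below 0.05 there was 1 gene (1.23%, against 15.9% of all genes). It was Rpl10, with 203.3 and 205.1 CPM with empty vector and 182.9 and 174.1 CPM with Bach2 (-0.19, SE 0.0791, adjusted p = 0.245, edgeR). The groups did not overlap for 9 genes higher and 10 lower, below the 21.7% and 22.9% of all genes. The median was -0.08 without Tfh empty vector replicate 1 and 0.06 without Tfh empty vector replicate 2, so its sign rests on which of these libraries is kept.

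Averaged over both cell types, 3 ribosomal protein genes (3.7%) were called higher with Bach2 and 0 lower, where 2.37% and 2.9% of all genes were called. The count of higher genes is thus near the share over all genes. Rpl37a went from 358.7 and 393.5 to 426.3 and 419.6 CPM in Tfh cells beside the non-Tfh values above (averaged log2 fold change 0.27, SE 0.0588, adjusted p = 0.0185, edgeR). Rps27, a zinc-binding 40S protein, went from 142.0 and 129.1 to 153.1 and 154.1 CPM in Tfh cells, and from 117.9 and 119.7 to 136.6 and 167.2 CPM in non-Tfh cells (0.27, SE 0.0712, adjusted p = 0.0441). Part of the sequence of Rps27 is shared with its copy Rps27rt, so the split of reads between them is uncertain. In Rpl37a and Rps27 the groups did not overlap in either cell type. None of the 3 was called without non-Tfh empty vector replicate 1, non-Tfh empty vector replicate 2 or non-Tfh Bach2 replicate 2, and the count was 1 without Tfh empty vector replicate 2 or without Tfh Bach2 replicate 2.

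For genes that encode paralogous proteins, the balance within a pair was compared between cell types. The ratio of Rps27l to Rps27 counts averaged 0.741 ± 0.111 in Tfh and 1.11 ± 0.0622 in non-Tfh cells with empty vector, and 0.550 ± 0.0472 and 0.840 ± 0.235 with Bach2 (SD, n = 2). The ratio of Rpl7l1 to Rpl7 averaged 0.353 ± 0.0180 and 0.442 ± 0.0166 with empty vector, and 0.356 ± 0.000566 and 0.445 ± 0.0182 with Bach2. The ratio of Rpl22l1 to Rpl22 averaged 0.550 ± 0.0119 and 0.670 ± 0.0187 with empty vector, and 0.500 ± 0.0453 and 0.614 ± 0.0743 with Bach2. All 3 ratios were lower in Tfh cells with either vector, with no overlap between the libraries of the cell types. The ratio of Rpl36al to Rpl36a was lower in Tfh cells with empty vector (1.77 ± 0.102 against 2.28 ± 0.0750), while the libraries overlapped with Bach2 (1.70 ± 0.0672 against 1.80 ± 0.0933). The ratio of Rps27rt, a copy of Rps27 outside the symbol rule, to Rps27 went the other way with empty vector (1.44 ± 0.0509 in Tfh against 1.31 ± 0.0976 in non-Tfh cells, with no overlap) and overlapped with Bach2 (1.47 ± 0.0247 against 1.44 ± 0.100). Rpl39l, with 1 to 5 counts in a library, was too low for a ratio to Rpl39. These ratios are of counts, not of levels per length, and were not tested.

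Many ribosomal protein genes share sequence with processed copies elsewhere in the genome, and how reads with several matches were counted is not given in the sources used here. A median of 30.9% of the 75-base windows of a gene's transcripts were found exactly in a transcript of another gene (75 bases being the read length), and 25 of the 84 genes had over 50%. The share was 77.4% for Rpl7a, 84.1% for Rpl5, 49.4% for Rps2, 29.9% for Rpsa, 28.2% for Rpl29, 8.07% for Rps27l and 3.14% for Rpl7l1. With Bach2, 15 of the 25 genes with over 50% and 23 of the 56 others were lower in Tfh cells, with medians of -0.27 and -0.24. With empty vector the counts were 0 of 25 and 7 of 56, with medians of -0.10 and -0.08. Pseudogene rows named after these genes with -ps held 0.0166% to 0.0232% of the counts of a library. Copies with other symbols are not in this sum, such as Gm8226, which shares 71.1% of the windows of Rpl7a.

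The genes were also split by the TOP-like tract. Among tested genes with a promoter entry, 19 of 43 with a tract and 9 of 18 without one were lower in Tfh cells with Bach2, with medians of -0.26 and -0.24. With empty vector the medians were -0.08 and -0.09. For Bach2 against empty vector in non-Tfh cells they were 0.16 and 0.11.

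Genes that make and assemble ribosomes were compared between the cell types in the same way, against the backgrounds of all genes given above. Of 50 tested genes for RNA polymerase I and rRNA processing, 20 were lower and 1 higher with empty vector (median log2 fold change -0.33), and 28 lower and 1 higher with Bach2 (-0.39). Nop56, a core protein of the small nucleolar RNA particles that guide rRNA methylation, was at -0.59 (adjusted p = 0.00116, edgeR) and -0.89 (adjusted p = 3.82e-05). Dkc1, the pseudouridine synthase of the other class of those particles, was at -0.62 (adjusted p = 0.000329) and -0.77 (adjusted p = 4.96e-05). Of 32 ribosome assembly and export factors 11 were lower and 0 higher with each vector (medians -0.22 and -0.30), led by Bysl, a 40S assembly factor, at -1.13 (adjusted p = 0.000101) and -1.30 (adjusted p = 3.63e-05).

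Translation factors and other TOP mRNAs were counted too. Of 38 initiation factors 4 were lower and 0 higher with empty vector, and 10 lower and 1 higher with Bach2 (medians -0.07 and -0.13). Of 14 elongation and termination factors 3 were lower and 0 higher, then 5 lower and 1 higher (medians -0.14 and -0.26), with Eef1d, a subunit of the exchange factor of elongation factor 1, at -0.57 (adjusted p = 0.000464, edgeR) and -0.66 (adjusted p = 0.000120). Of 23 other TOP mRNAs 5 were lower, then 10, and 0 higher with either vector (medians -0.08 and -0.22). The lists overlap, so their counts are not separate results. Among these TOP mRNAs, Eef1d is also an elongation factor of the list above and Ipo5 an assembly and export factor. Npm1 is also in the list of RNA polymerase I and rRNA processing. Rack1, a scaffold on the 40S subunit outside the symbol rule, was at -0.24 (adjusted p = 0.0543) and -0.33 (adjusted p = 0.00874), while Fau, which encodes a 40S protein fused to a ubiquitin-like sequence, was not called (-0.07, adjusted p = 0.591, and -0.02, adjusted p = 0.888). The 12 snoRNA host genes had 9 tested, of which 0 were called with either vector in edgeR (1 and 2 at an unadjusted p below 0.05).

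Among regulators of ribosome synthesis, single genes were lower in Tfh cells, while the counts over the Myc network and over the TOP and mTORC1 regulators were near the background (11.3% of all genes lower with empty vector and 12.7% with Bach2). Myc measured a mean of 24.8 and 24.3 CPM in Tfh cells (empty vector, Bach2) and 73.0 and 94.8 CPM in non-Tfh cells. Its log2 fold changes between the cell types were -1.56 (SE 0.175, adjusted p = 3.38e-05, edgeR) and -1.97 (SE 0.175, adjusted p = 4.61e-06), and it was the 1 lower gene of 11 tested in its network, with 0 higher and list medians of 0.09 and 0.0088. For Bach2 against empty vector Myc was at 0.38 in non-Tfh (adjusted p = 0.439) and -0.03 in Tfh cells (adjusted p = 0.951). Larp1 was lower in Tfh cells, at -0.94 (adjusted p = 1.85e-05) and -0.68 (adjusted p = 0.000263), as was Rptor, the defining subunit of mTORC1, at -0.69 (adjusted p = 0.00375) and -0.56 (adjusted p = 0.0108). Of the 20 tested regulators of TOP mRNAs and mTORC1, 3 were lower with empty vector and 2 with Bach2, and 0 were higher, with medians of -0.09 and -0.0055 and with 6 and 10 positive estimates. Of 11 tested genes of ribosomal stress and the Mdm2 axis, 3 and 5 were lower in Tfh cells and 0 higher. One of them, Cdkn1a, the cell cycle inhibitor p21, fell with Bach2 in both cell types (-1.18, adjusted p = 0.00571 in Tfh, and -1.16, adjusted p = 0.00193 in non-Tfh cells).

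The mitochondrial ribosome has its own set of nuclear-encoded proteins. Of 76 tested genes, 0 were lower and 2 higher in Tfh cells with empty vector, and 2 lower and 2 higher with Bach2. These counts are below the shares over all genes (11.3% lower and 10.6% higher, then 12.7% and 11.6%). The medians of the mitochondrial ribosome genes were -0.06 and -0.10. For Bach2 against empty vector their median was -0.08 in non-Tfh cells, where the cytosolic genes had 0.16, and -0.14 in Tfh cells, with 0 called in either cell type in edgeR and 0 and 10 at an unadjusted p below 0.05 in non-Tfh and Tfh cells, where 10.4% and 15.9% of all genes had one.

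**Figure D5:**
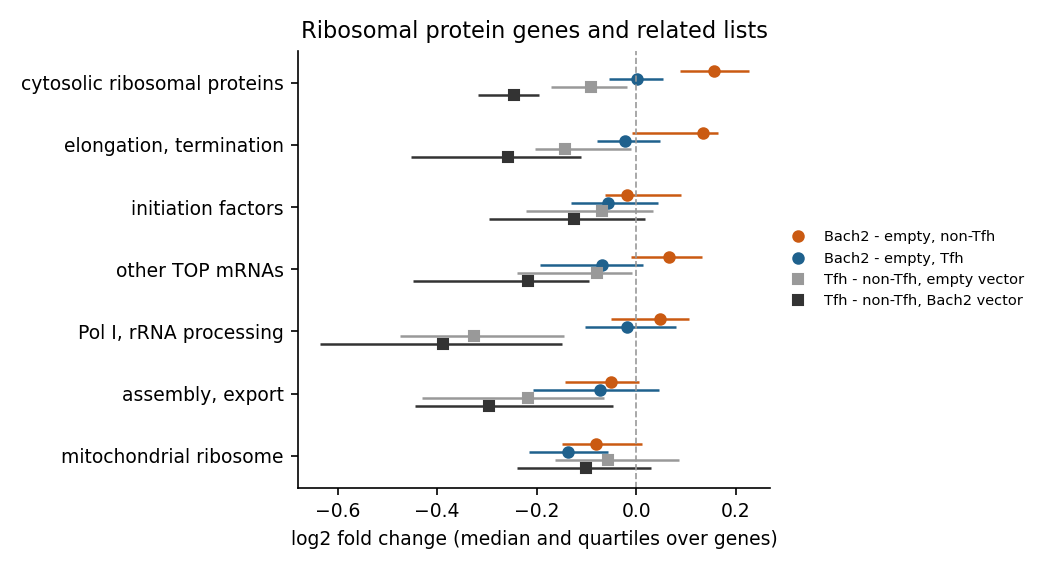
Median (point) and quartiles (line) of the log2 fold changes over the tested genes of the cytosolic ribosomal proteins and 6 related lists, for Bach2 against empty vector (circles) and for the cell types (squares). For Bach2 in non-Tfh cells the cytosolic ribosomal proteins have a median of 0.16 and the mitochondrial ones -0.08. Some genes belong to several of the related lists.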

How the data were processed

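RNA from 8 sorted T cell populations was purified with RNeasy Micro, amplified with Smart-Seq v4, made into Nextera XT libraries and read in 75-base pairs on a NextSeq500, per the labels' protocols. This kit does not mark strand. The deposited values are counts, whole numbers per Ensembl gene and library, made by the authors with TopHat2, Bowtie2 and featureCounts on GRCm38/mm10, per the submitters' processing notes. The annotation release, with versions and the handling of reads with several matches, is not given in the sources used here. Totals were 7862879 to 9889859 counts per library. Limits from a count of 0 (3 counts, 95% confidence) cover counting error alone, as there are no molecular identifiers.

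Ensembl IDs were matched to GENCODE M21 (37693 of 39179). The 1486 unmatched IDs held 0.187% to 0.205% of counts and stayed in the fit. Genes were filtered with filterByExpr (minimum count 10, minimum total 15), which left 11475. TMM-scaled counts (factors 0.985 to 1.01) of all 8 libraries were fitted with 1 coefficient per group (4 residual degrees of freedom) in edgeR 4.0.16 (limma 3.58.1, R 4.3.3), with the robust quasi-likelihood test and Benjamini-Hochberg adjustment over all tested genes of a comparison, at a threshold of 0.05. The biological coefficient of variation was 9.89%. CPM are TMM-scaled. Replicates of a group were not copies (chi-square over degrees of freedom 5.98 to 9.36).

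Named in each comparison were up to 6 called genes with the smallest adjusted p in each direction and up to 3 with the largest change, or the 3 smallest adjusted p where none was called, besides the P-stalk, Rpsa, Rps6, Rps27a and the duplicated genes. Rpl4, Rpl32, Rpl23a, Rpl24, Rpl41 and the genes with printed starts were chosen after their values were seen. Some genes that the rule names are not reported here. The genes and lists were chosen with earlier results of these data known. Alternatives were DESeq2 1.42.0, upper-quartile scaling, scaling without the ribosomal protein genes, no filter, a replicate block, pseudogene rows added to their parents, a test against a 1.2-fold change, and leaving out each library. Sequences and motifs came from RefSeq GRCm38.p6.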

Additional observations from a re-analysis of the deposited data

Results flagged for a closer look

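Counts outside the 84 genes also carried ribosomal protein sequence, above the limit that a count of 0 allows in every library. Rps27rt, a protein-coding copy of Rps27 whose symbol falls outside the rule, had a lowest level of 146.8 CPM over the 8 libraries. Its means were 194.3 CPM in Tfh cells with empty vector, 225.6 CPM in Tfh cells with Bach2, 156.2 CPM in non-Tfh cells with empty vector and 217.6 CPM in non-Tfh cells with Bach2. It rose with Bach2 in non-Tfh cells (log2 fold change 0.48, SE 0.0892, adjusted p = 0.0207, edgeR's quasi-likelihood test) and was higher in Tfh than in non-Tfh cells with empty vector (0.32, SE 0.0894, adjusted p = 0.0210). In Tfh cells the change with Bach2 was 0.21 (adjusted p = 0.252). Of its 75-base windows 90.3% are shared with Rps27, so the split of reads between the 2 genes is uncertain.

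Pseudogene rows named after the 84 genes (237, of which 125 had a count) held at least 0.0166% of the counts of each library, and 0.855 to 1.06 counts per 100 counts of the genes themselves. Copies without a -ps symbol were not counted here, nor added to their parents in the alternative below.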

How the results depend on the processing

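No called result reversed direction, and the sign of the median for Bach2 in Tfh cells, close to 0, changed when a library was left out. Of 57 called results of named genes, 18 kept their call in all 15 alternatives, 8 of which leave out 1 library each. Bach2 against empty vector in non-Tfh cells gave 0 higher genes, 1 with DESeq2, 4 with no filter and 1 with the replicate block; averaged over cell types it gave 3, 6 with no filter and 0 against a 1.2-fold change. Against a 1.2-fold change, genes lower in Tfh cells numbered 2 with empty vector, 9 with Bach2 (0 higher) and 5 averaged. The share of counts in non-Tfh cells with Bach2 was 2.34%, and 2.36% with pseudogene rows (2.363) or without mitochondrial counts (2.364). Leaving out 1 library gave 2 to 8 lower genes with empty vector, 16 to 36 with Bach2, 23 to 46 averaged over vectors, and 0 to 4 higher genes for the averaged vector effect. Medians then ran from -0.0776 to 0.0647 (Bach2 in Tfh), -0.178 to -0.0417 (cell type, empty vector) and -0.304 to -0.191 (cell type, Bach2). Fewer libraries are fitted in these settings; for the other changes the cause was not tested.

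The labels do not say what a replicate number stands for, and the numbers were not taken to pair the libraries, since the correlation of same-numbered deviations was not over 0.1 in every pair of groups (-0.00413 to 0.240 over all genes, -0.367 to 0.289 over the ribosomal protein genes). It was 0.208 (empty vector) and 0.240 (Bach2) between the cell types. The replicate block holds 1 effect across both vectors, so a pairing within each vector alone was not fitted. With the replicate block, Tfh against non-Tfh gave 7 lower genes with empty vector, 42 with Bach2 and 42 averaged, with 1 higher each, and the averaged vector effect gave 4 higher. The 2 libraries a group limit the precision. When 2 groups were compared, the median SE over the ribosomal protein genes was 0.0877 to 0.0889 on the log2 scale. Over all tested genes it was 0.1554 to 0.1565.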
